A study of Caenorhabditis elegans with 6 samples.

Results

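The proteasome subunit genes are the 33 genes that encode the 20S core particle and its 19S regulatory cap in Caenorhabditis elegans. They were taken by symbol from the 46748 genes of the deposited count table, after each identifier was matched to its WormBase name, and all 33 were found. They comprise 7 alpha subunits (pas-1 to pas-7), 7 beta subunits (pbs-1 to pbs-7), 6 ATPases of the base (rpt-1 to rpt-6), 4 other base subunits (rpn-1, rpn-2, rpn-10 and rpn-13) and 9 lid genes (rpn-3, rpn-5, rpn-6.1, rpn-6.2, rpn-7, rpn-8, rpn-9, rpn-11 and rpn-12). All 33 passed the filter on low counts that left 13374 genes for testing.

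The RNA was from whole N2 hermaphrodites, the standard wild type, after 2 days of treatment, counted from the last larval stage, L4. One group of 3 libraries received RNA interference (RNAi) against T25B9.1 and the other group of 3 received L4440, the empty vector that serves as the control for RNAi by feeding. The product of T25B9.1 corresponds to glycine C-acetyltransferase, a mitochondrial enzyme of threonine breakdown. The comparison asks which transcripts differ after its knockdown. Both groups carried the same genetic background, no transgene is named, and the labels do not say whether the libraries of a group came from separate cultures. The p-values thus rest on the spread among these libraries, which may be technical.

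The proteasome degrades proteins that carry ubiquitin chains. The alpha rings form the gated ends of the core, the beta rings between them hold the proteolytic sites, and the 19S cap recognises the ubiquitin chain, removes it and threads the unfolded protein into the core with its ring of ATPases. In worms most subunits are needed for viability and embryonic development, and the transcription factor SKN-1A raises their transcription together when proteasome function is impaired.

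The libraries held 26125982 to 40726259 counts. T25B9.1 itself had 1.35, 1.71 and 1.76 CPM (counts scaled to library size by the TMM method) in T25B9.1 RNAi replicates 1, 2 and 3, against 5.99, 4.99 and 6.39 CPM in L4440 replicates 1, 2 and 3. The groups did not overlap, and the log2 fold change was -1.84 (SE 0.184, adjusted p = 0.0525 in edgeR's quasi-likelihood test). On the first principal component T25B9.1 RNAi replicate 1 lay at -41.9, whereas the other libraries lay between -4.59 and 27.5. In the same library the 8 moulting genes had a median 0.99 above the L4440 mean on the log2 scale, where the other RNAi libraries stood at 0.22 and 0.24 and the L4440 libraries at -0.21 to 0.24. All 8 had a log2 fold change above 0, and their summed level was 262 to 520.4 CPM under RNAi and 184 to 271 CPM with L4440. The 5 pharynx markers were also all above 0, with a summed level of 64.02 to 173 CPM under RNAi and 39.7 to 69.1 CPM with L4440. Of 8 neuronal markers 7 were above 0, with a median 0.77 above the L4440 mean in RNAi replicate 1. Their summed level was 219 to 251 CPM under RNAi and 227 to 252 CPM with L4440. Most of that sum was snb-1, the 1 marker below 0, at 150 to 161 CPM under RNAi and 167 to 184 CPM with L4440. Of 6 body wall muscle markers 4 were above 0, with a median of 0.77 in RNAi replicate 1 and a summed level of 793 to 1551 CPM under RNAi and 837 to 1200.1 CPM with L4440. Of 5 tested hypodermis and cuticle markers 3 were above 0, with a median of 1.05 in RNAi replicate 1 and a summed level of 129.8 to 198 CPM under RNAi and 130.5 to 169.5 CPM with L4440. Of 9 intestine markers 8 were above 0, with a summed level of 73507 to 86077 CPM under RNAi and 56632 to 88799 CPM with L4440. Of the 12 germ line and oocyte markers 6 were below 0 and all 12 were tested, with medians of -0.05 to -0.002 in the RNAi libraries and -0.03 to 0.008 in the L4440 libraries, and their summed level was 14135 to 14791 CPM under RNAi and 14203 to 14734 CPM with L4440. None of the 8 sperm genes passed the filter, and msp-56, which encodes a major sperm protein, was listed at 0 in all 3 RNAi libraries and 2 of 3 L4440 libraries. The part of these markers in any result on the proteasome genes was not tested.

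Transcripts of 32 of the 33 subunits stood at similar, high levels, and 1 lay far below. Levels between genes are compared as CPM per kb of exon, the TMM-scaled CPM divided by the exonic length in the annotation. The median over the 33 genes was 248 CPM per kb, and 32 of them lay between the 94.2 and the 98th percentile of the 13281 tested genes with a length. The exception was rpn-6.2, at 15.3 CPM per kb and the 56.5 percentile.

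In every library the median core gene stood above the median cap gene once levels were divided by exonic length. The ratio of the median of the 14 core genes to the median of the 19 cap genes, on the per-kb scale, was 1.25, 1.21 and 1.28 in T25B9.1 RNAi replicates 1, 2 and 3, and 1.303, 1.23 and 1.37 in L4440 replicates 1, 2 and 3. The ranges of the groups overlapped. The ratio was lower in each RNAi replicate than in the L4440 replicate of the same number, which is also its neighbour in library number, and this difference was not tested.

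**Figure D1:**
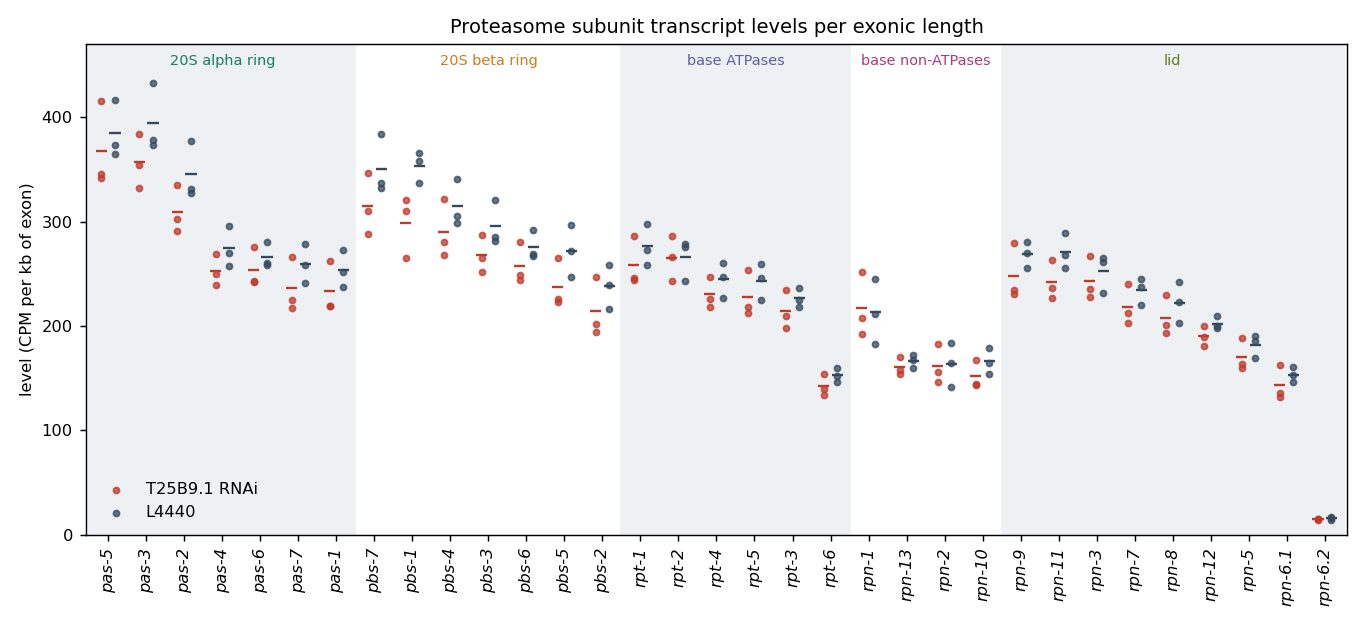
Level of each of the 33 proteasome genes in CPM per kb of exon (vertical axis), with the genes on the horizontal axis grouped by subcomplex and ordered by mean level, points for single libraries, bars for the means of 3, T25B9.1 RNAi at the left and L4440 at the right of each gene. The levels run from 15.3 CPM per kb for rpn-6.2 to 376 for pas-5, and the points of both groups overlap for every gene except pbs-1.

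The order of the subcomplexes by median level per kb was beta ring (282), alpha ring (263), base ATPases (237), lid (215) and the other base subunits (163). In CPM not divided by length the order was nearly the reverse. The medians were then 379 for the other base subunits, 349 for the ATPases, 301 for the lid, 257 for the alpha ring and 242 for the beta ring. The per-kb order, and the core-to-cap ratio with it, therefore depends on the division by length. The beta ring averaged 268 ± 18.1 CPM per kb under RNAi and 296 ± 21.4 CPM per kb with L4440, and the alpha ring 256 ± 17.0 CPM per kb under RNAi and 275 ± 18.5 CPM per kb with L4440 (SD, n = 3 each), so these neighbours in the order were separated by about their spread. Within each of the 6 libraries the median of the beta ring was above that of the alpha ring. With coding length in place of exonic length, a choice made after the data were seen, the same order held at 369, 329, 279, 245 and 199 CPM per kb. Ranks within a subcomplex did not all hold. By coding length pas-3 was highest and pas-4 lowest in the alpha ring, rpn-7 highest in the lid and rpn-2 lowest among the other base subunits. In the second deposited table, whose values are not on 1 scale, the alpha ring was above the beta ring, with medians of 247.9 and 234.9. Within a subcomplex the highest gene exceeded the lowest by 1.54-fold in the alpha ring, 1.47-fold in the beta ring, 1.81-fold among the ATPases and 1.35-fold among the other base subunits. In the lid the factor was 16.8 with rpn-6.2 and 1.74 without it.

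The alpha ring closes the entrance of the core. Its highest gene, pas-5 (WBGene00003926, chromosome I, 10566350 to 10567300 in build WBcel235), averaged 368 ± 41.8 CPM per kb under T25B9.1 RNAi and 385 ± 27.6 CPM per kb with L4440 (SD, n = 3 each). Next to it was pas-3, at 357 ± 25.7 CPM per kb under RNAi and 395 ± 33.2 CPM per kb with L4440, and these leading genes were not separated beyond their spread. The lowest was pas-1, at 234 ± 24.8 CPM per kb under RNAi and 254 ± 17.9 CPM per kb with L4440.

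The beta ring carries the active sites on 3 of its subunits. PBS-1 (the caspase-like site), PBS-2 (the trypsin-like site) and PBS-5 (the chymotrypsin-like site) are the worm counterparts of those catalytic subunits. On the per-kb scale pbs-7, a structural subunit, was highest at 333, followed by pbs-1 at 326, while pbs-5 stood at 255 and pbs-2 at 226, the lowest of the ring. The catalytic genes therefore spanned almost the whole range of the ring.

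Among the ATPases, which form the unfolding ring of the base, rpt-1 and rpt-2 led at 268 and 265 CPM per kb and rpt-6 was lowest at 148. The largest base subunits, RPN-1 and RPN-2, act as scaffolds, and RPN-10 and RPN-13 bind ubiquitin chains. Of these rpn-1 was at 215 CPM per kb, and rpn-13, rpn-2 and rpn-10 followed at 163, 162 and 159, closer than the spread between libraries.

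In the lid, rpn-9 and rpn-11 were highest by exonic length, at 258 and 257 CPM per kb. By coding length rpn-7 was highest at 351, with rpn-11 at 338 and rpn-9 at 295. RPN-11 is the metalloprotease that cuts the ubiquitin chain from the substrate. RPN-6 is the lid subunit that clamps the core to the cap, and the worm has a pair of genes for it on chromosome III. The gene rpn-6.1 (WBGene00004462, 6959110 to 6962001, minus strand) was at 143 ± 16.8 CPM per kb under RNAi and 153 ± 7.33 CPM per kb with L4440 (SD, n = 3 each). Its paralog rpn-6.2 (WBGene00010309, 8999817 to 9001999, minus strand) was at 14.8 ± 0.649 CPM per kb under RNAi and 15.9 ± 1.41 CPM per kb with L4440. How the counting treated any reads shared between the paralogs was not given, so the levels of both are uncertain to that extent.

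The members lie on all the autosomes and not on the X chromosome. Chromosome I holds 10 of the 33, II holds 7, III holds 8, IV holds 3, V holds 5 and X holds 0, whereas 14.8% of the genes tested are on X. No member has another member as its nearest protein-coding neighbour. The library kit does not mark strand, and 10 members share exonic bases with a gene on the opposite strand, from 4 bases (pas-7 with lact-2) to 394 bases (rpn-7 with nemt-1). On the same strand pbs-7 shares 70 exonic bases with K07A12.5, which stood at 2.31 CPM under RNAi and 2.48 CPM with L4440. The partner nemt-1 stood at 2.06 CPM under RNAi and 1.89 CPM with L4440, against 416 and 447 CPM for rpn-7.

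Averaged over libraries, most proteasome genes were slightly lower under T25B9.1 RNAi, but no single member passed the test over all genes. The library medians of the members overlapped between the groups. Against the L4440 mean they were -0.20, 0.04 and -0.15 (log2 scale) in RNAi replicates 1, 2 and 3. In L4440 replicates 1, 2 and 3 they were 0.09, -0.007 and -0.08. The members share the same 6 libraries and are not replicates of the treatment. The log2 fold change was below 0 for 32 of the 33, where 49.4% of all genes tested were below 0, and the median was -0.10 against 0.002 for all genes. By edgeR's quasi-likelihood test 0 of the 33 had an adjusted p under 0.05, as for 0 of the 13374 genes (0%). At an unadjusted p under 0.05 there was 1 member, lower, where 2.17% of all genes were lower, 4.01% higher and 6.18% either at that threshold. DESeq2, limma-voom and edgeR's likelihood ratio test also called 0 members, with 14 (0.104%), 0 and 12 (0.0897%) genes called over the whole table. The RNA is from whole worms, so fewer cells of a type and less RNA per cell cannot be told apart.

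**Figure D2:**
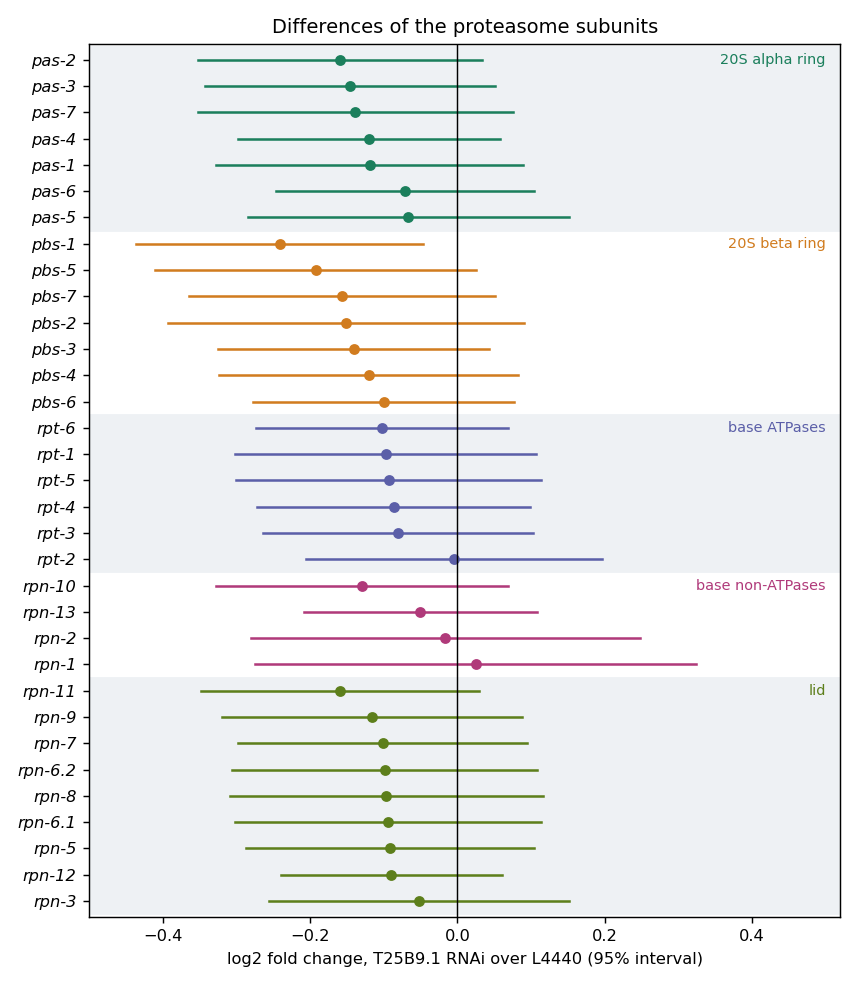
Log2 fold change of each proteasome gene, T25B9.1 RNAi over L4440 (horizontal axis), with its 95% interval from edgeR's quasi-likelihood fit, and genes on the vertical axis grouped by subcomplex. The values run from -0.24 for pbs-1 to 0.02 for rpn-1, and the interval of every member except pbs-1 includes 0.

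The beta ring had the lowest median, -0.15, with all 7 genes below 0. The catalytic subunit gene pbs-1 (WBGene00003947, chromosome IV, 1708814 to 1709745, minus strand) had 218, 264 and 255 CPM in T25B9.1 RNAi replicates 1, 2 and 3, against 301, 277 and 294 CPM in the L4440 replicates. Every RNAi library was below every L4440 library, the only such case among the 33, while 5.32% of all genes tested did the same. No member had every RNAi library above every L4440 library, where 5.53% of all genes did. The log2 fold change of pbs-1 was -0.24 (SE 0.0858, 95% interval -0.44 to -0.05), a level 15.4% lower (percent difference -15.4), with an adjusted p = 0.717 in edgeR's quasi-likelihood test.

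For pbs-5, the gene of the chymotrypsin-like subunit, the RNAi libraries had 239, 280.2 and 236 CPM and the L4440 libraries 314, 288 and 261 CPM. Here RNAi replicate 2 lay above L4440 replicate 3, and the log2 fold change was -0.19 (95% interval -0.41 to 0.03, adjusted p = 0.717 in edgeR). The gene of the trypsin-like subunit, pbs-2, had 195, 249 and 203 CPM under RNAi and 259.9, 241 and 218 CPM with L4440, with an interval of -0.39 to 0.09. RNAi replicate 2 was again the high library of its group, above the L4440 replicates 2 and 3.

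Of the structural beta subunits, pbs-7 had 253, 304 and 272 CPM under RNAi and 337, 291 and 295 CPM with L4440, and pbs-6 had 214, 246 and 218 CPM under RNAi and 256, 234.6 and 236 CPM with L4440. In both genes RNAi replicate 2 was above L4440 replicates 2 and 3. The log2 fold change was -0.16 for pbs-7 and -0.10 for pbs-6, the smallest of the ring, with pbs-3 at -0.14 and pbs-4 at -0.12 between them.

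The alpha ring had a median of -0.12, and all 7 genes were below 0. The RNAi libraries had 245, 282 and 254 CPM of pas-2 and the L4440 libraries 318, 276 and 279 CPM (log2 fold change -0.16, 95% interval -0.35 to 0.03, adjusted p = 0.717 in edgeR). The next gene by p was pas-3, at 297, 342 and 316 CPM under RNAi and 386, 333 and 337 CPM with L4440. L4440 replicate 1 was highest for both genes, and RNAi replicate 2 overlapped the other L4440 libraries.

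At the upper end, pas-5 had 292, 356 and 295 CPM under RNAi and 356, 319.5 and 312 CPM with L4440, and its log2 fold change of -0.07 was well within its interval of -0.28 to 0.15. The values of pas-1 were 207, 248 and 208 CPM under RNAi and 258, 238 and 224 CPM with L4440. The remaining alpha genes pas-4, pas-6 and pas-7 lay between -0.14 and -0.07.

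The 6 ATPase genes had a median of -0.09, with all below 0. For rpt-6 the RNAi libraries had 189, 216 and 196 CPM and the L4440 libraries 225, 214 and 206 CPM, a log2 fold change of -0.10 (95% interval -0.27 to 0.07, adjusted p = 0.737 in edgeR). The gene rpt-1 had 372, 433 and 369 CPM under RNAi and 451, 413 and 391 CPM with L4440. The groups overlapped for both. The ATPase gene nearest to no difference was rpt-2, with 391, 422 and 358 CPM under RNAi and 407, 411 and 358 CPM with L4440, for which the log2 fold change was -0.005 (95% interval -0.21 to 0.20) and above 0 with upper quartile factors (0.022), with library totals only (0.021) and in the length correction (0.006). The other 3 ATPase genes were at -0.09 to -0.08.

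The base subunits without ATPase activity had the median nearest to 0, -0.03. The scaffold gene rpn-1 (WBGene00004458, chromosome IV, 6906420 to 6909913, minus strand) was the 1 member above 0, with 657, 797 and 608 CPM under RNAi and 671, 778 and 578 CPM with L4440. Its log2 fold change was 0.02 (SE 0.132, 95% interval -0.27 to 0.32) and -0.05 in the length correction. The partner scaffold gene rpn-2 was at -0.02.

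The genes of the ubiquitin receptors were also within the spread. For rpn-10 the RNAi libraries had 185, 216 and 186 CPM and the L4440 libraries 230.4, 213 and 199 CPM (log2 fold change -0.13, 95% interval -0.33 to 0.07). The values of rpn-13 were 235.4, 254 and 229.7 CPM under RNAi and 257, 249.5 and 239 CPM with L4440 (log2 fold change -0.05, 95% interval -0.21 to 0.11). RNAi replicate 2 lay within the L4440 range for both genes, and RNAi replicates 1 and 3 lay below it.

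The lid had a median of -0.10, with all 9 genes below 0. The lowest value was that of the deubiquitinase gene rpn-11 (WBGene00004467, chromosome II, 4043055 to 4044546, minus strand), with 279.9, 326 and 292 CPM under RNAi and 357, 331 and 315 CPM with L4440 (log2 fold change -0.16, 95% interval -0.35 to 0.03, adjusted p = 0.717 in edgeR). RNAi replicate 2 was above L4440 replicate 3, while RNAi replicates 1 and 3 were below all L4440 libraries. For rpn-12 the RNAi libraries had 155, 171 and 162 CPM and the L4440 libraries 179, 171 and 169 CPM, a log2 fold change of -0.09.

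The RNAi libraries had 305, 369.8 and 311 CPM of rpn-9 and the L4440 libraries 372, 358 and 339 CPM. The value nearest to 0 in the lid was that of rpn-3, with 437, 496 and 422 CPM under RNAi and 492, 484 and 429 CPM with L4440 (log2 fold change -0.05). The paralogs had nearly equal differences at unequal levels. The gene rpn-6.1 had 217, 268 and 223 CPM under RNAi and 251, 264 and 240.3 CPM with L4440 (log2 fold change -0.09, 95% interval -0.30 to 0.11), and rpn-6.2 had 22.1, 24.1 and 22.9 CPM under RNAi and 24.8, 22.5 and 26.9 CPM with L4440 (log2 fold change -0.10, 95% interval -0.31 to 0.11). The lid genes rpn-5, rpn-7 and rpn-8 were at -0.10 to -0.09.

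Library by library, the members moved together. T25B9.1 RNAi replicate 1 was the lowest of the 6 libraries for 22 of the 33 genes and RNAi replicate 3 for 8. L4440 replicate 1 was the highest for 27. The shares over all genes are not given here. The medians over all genes tested, against the L4440 mean, were 0.008, -0.01 and 0.02 in RNAi replicates 1, 2 and 3. They were 0.01, -0.03 and 0.02 in L4440 replicates 1, 2 and 3. The median of the members against the L4440 mean was -0.20, 0.04 and -0.15 on the log2 scale in RNAi replicates 1, 2 and 3, and 0.09, -0.007 and -0.08 in L4440 replicates 1, 2 and 3. RNAi replicate 2 thus lay above L4440 replicates 2 and 3, and the groups overlapped. The summed level of the 33 genes was 9018, 10532 and 9079 CPM in the RNAi replicates, against 10759, 10284 and 9530.0 CPM in the L4440 replicates. The median SD of a member over the 6 libraries was 0.124 on the log2 scale, and 0.062 once the median member of the same library was subtracted. Part of that drop is built in, since the subtracted value is that of a member, and no value over all genes is given. On that relative scale 6 members (pas-5, pas-6, pbs-4, pbs-6, rpt-3 and rpn-13) had every RNAi library above every L4440 library, where 13.2% of all genes did. The reverse held for 0 members, where 0.314% of all genes did. The median member is the gene at the middle level of its library. It was pas-6, pas-2 and pas-2 in RNAi replicates 1, 2 and 3, and pbs-5, pbs-1 and pas-2 in L4440 replicates 1, 2 and 3. It stood at 240, 282 and 254 CPM under RNAi and at 314, 277 and 279 CPM with L4440. The counts on the relative scale follow in part from this reference and are no result about the 6 members.

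**Figure D3:**
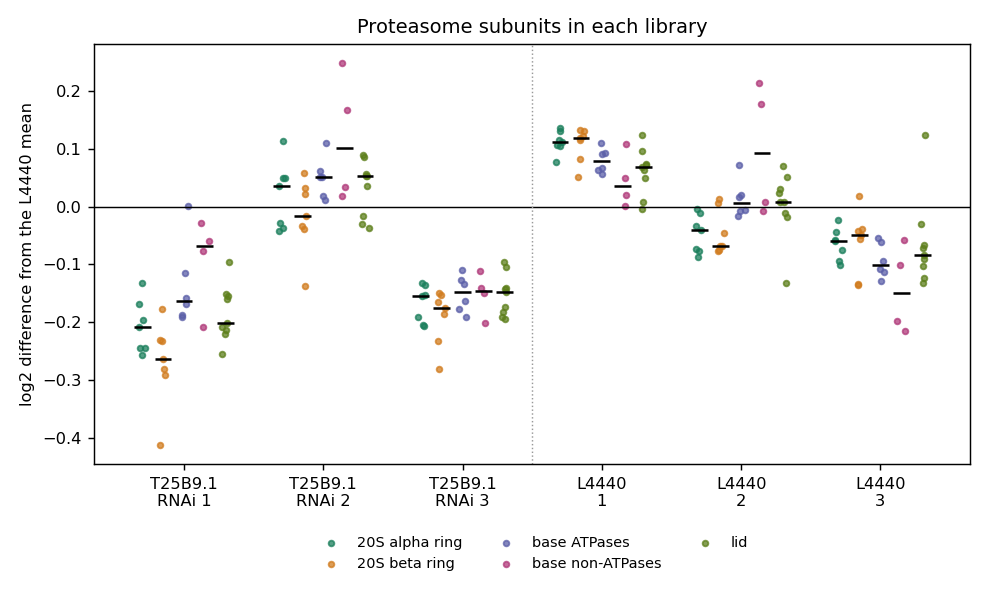
Log2 difference of each proteasome gene from its L4440 mean (vertical axis) in each of the 6 libraries (horizontal axis), coloured by subcomplex, with a bar at the median of each subcomplex. T25B9.1 RNAi replicates 1 and 3 lie below 0 for 32 and 33 of the 33 genes, whereas T25B9.1 RNAi replicate 2 lies below 0 for 10.

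The subcomplexes did not follow the same order in every library. In RNAi replicate 1 the beta ring was lowest at -0.26 and the other base subunits highest at -0.07, whereas in RNAi replicate 3 all 5 medians lay between -0.18 and -0.15. In RNAi replicate 2 the beta ring was at -0.02 and the other base subunits at 0.10, and in L4440 replicate 3 the other base subunits were lowest at -0.15.

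The size of the group difference turned on single libraries. The median over the members was -0.19 without RNAi replicate 2, and 13 members then had an unadjusted p under 0.05 in edgeR's quasi-likelihood test, all lower, where 3.55% of all genes were lower at that threshold. It was -0.065 without RNAi replicate 1 and -0.065 without L4440 replicate 1, each with 0 members at an unadjusted p under 0.05, where only 0.737% and 0.701% of all genes were lower at that threshold. No member had an adjusted p under 0.05 in any of these fits.

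The libraries carry the numbers 14, 18 and 22 for T25B9.1 RNAi and 13, 17 and 21 for L4440 in the labels, which do not say that neighbouring numbers share anything. RNAi library 14 was lower than L4440 library 13 for 33 of the 33 genes (median difference -0.28 on the log2 scale), where 49.6% of all genes were lower. Library 18 was lower than library 17 for 4 genes (median 0.04), where 47.7% of all genes were lower. Library 22 was lower than library 21 for 30 genes (median -0.09), where 52.2% of all genes were lower. The direction therefore did not hold in every such pair, and pbs-1, pbs-5 and rpn-11 were the genes that were lower in all 3. Without T25B9.1 RNAi replicate 1, the library that stood apart, 31 of the 33 genes were below 0. With a block for neighbouring numbers 2 members had an unadjusted p under 0.05, pbs-1 and pbs-5 (each with an adjusted p = 0.451 in edgeR's quasi-likelihood test), where 4.01% of all genes were lower at that threshold.

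Shorter members were lower than longer ones. Spearman's rho between exonic length and log2 fold change was 0.59 across the 33 members and 0.32 across the 13281 tested genes with a length, a description across genes that share the same 6 libraries. The beta and alpha genes are 801 to 1059 exonic bases long, the ATPase genes 1355 to 1513, and rpn-1 and rpn-2 3171 and 3166. After a correction of each library for exonic length, rho over the members was 0.09. The median over the members was then -0.09, with 32 of 33 below 0, and the medians were -0.08 for the alpha ring, -0.11 for the beta ring, -0.08 for the ATPases, -0.07 for the other base subunits and -0.09 for the lid. The spread of the subcomplex medians thus narrowed to between -0.11 and -0.07, against -0.15 and -0.03 before. The correction takes out each library's trend with length over all genes, and length differs between the subcomplexes. The lower rho and the narrowing are therefore in part built into it, and they test nothing about the subcomplexes.

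**Figure D4:**
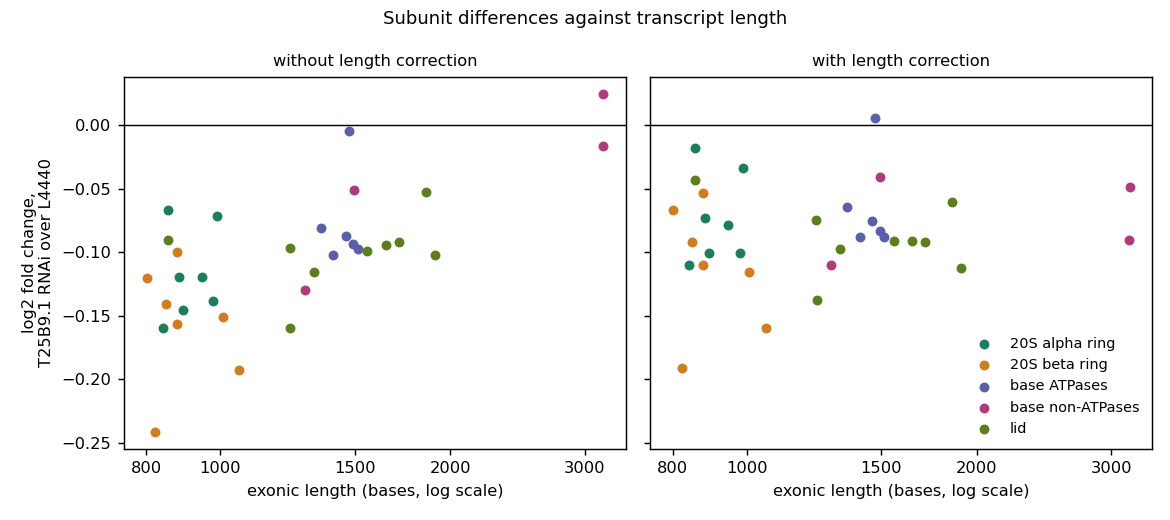
Log2 fold change of the 33 proteasome genes, T25B9.1 RNAi over L4440 (vertical axis), against exonic length in bases (horizontal log axis), without (left) and with (right) a correction of each library for length, coloured by subcomplex. The upward slope at the left (rho 0.59) is nearly flat at the right (rho 0.09), while 32 of the 33 points stay below 0.

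Genes that act around the proteasome showed small differences of the same order, and none passed the test over all genes. Of 18 ubiquitin, E1 and E2 genes 14 were below 0 (median -0.10). At an unadjusted p under 0.05 there were 3, each of them lower, where 2.17% of all genes were lower and 4.01% higher. In 4 of the 18 every RNAi library was below every L4440 library, where 5.32% of all genes did the same. The leading genes were ubq-2 and ubl-1, which encode ubiquitin or a ubiquitin-like protein fused to a ribosomal protein, at 956 ± 48.6 and 775 ± 106 CPM under RNAi and 1157 ± 132 and 943 ± 61.6 CPM with L4440 (SD, n = 3 each). Next by p was the E2 enzyme gene ubc-13, at 109 ± 9.96 CPM under RNAi and 123 ± 4.19 CPM with L4440. The single ubiquitin-activating enzyme gene uba-1 was at 1001 ± 137 CPM under RNAi and 981 ± 134 CPM with L4440.

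Among 10 proteasome-associated and assembly genes 7 were below 0 (median -0.09), with 1 lower and 0 higher at an unadjusted p under 0.05. At that threshold 2.17% of all genes were lower and 4.01% higher. In 1 of the 10 every RNAi library was below every L4440 library, where 5.32% of all genes did the same. The list also held pnk-4, a predicted pantothenate kinase. The gene dss-1, which encodes a small lid component outside the 33, was at 93.7 ± 7.87 CPM under RNAi and 107 ± 8.69 CPM with L4440. The assembly chaperone gene psmd-9 was at 32.8 ± 4.63 CPM under RNAi and 38.4 ± 4.08 CPM with L4440. The protease gene ddi-1, whose product activates SKN-1A, had 118, 132 and 133 CPM in the RNAi libraries and 144, 137 and 142 CPM in the L4440 libraries, with no overlap (adjusted p = 0.717 in edgeR).

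The genes listed with the SKN-1A recovery pathway lay on both sides of 0. Of the 8 genes 5 were below 0 (median -0.03), namely ddi-1, png-1, sel-1, sel-11 and xrep-4. The genes skn-1, wdr-23 and mxl-3 were above 0. Whether each listed gene acts in proteasome recovery was not examined. The gene png-1, whose product removes sugar chains from SKN-1A, was at 42.7 ± 0.979 CPM under RNAi and 44.9 ± 1.24 CPM with L4440. The gene skn-1 itself, counted over all its isoforms, had 325, 303 and 311 CPM in the RNAi libraries and 273, 309 and 306 CPM in the L4440 libraries, and the groups overlapped (log2 fold change 0.08, adjusted p = 0.78 in edgeR). The transcription factor gene mxl-3 was the 1 gene of the list at an unadjusted p under 0.05, where 4.01% of all genes were higher. It was higher, at 8.06 ± 0.838 CPM under RNAi and 6.40 ± 0.742 CPM with L4440. After mxl-3 and ddi-1 the next gene by p was xrep-4, at 114 ± 5.14 CPM under RNAi and 122 ± 2.98 CPM with L4440. In 3 of the 8 genes (ddi-1, png-1 and xrep-4) every RNAi library was below every L4440 library, where 5.32% of all genes did the same. The genes ddi-1, png-1, sel-1, sel-11, usp-14, ubh-4 and csn-5 each stand in 2 of the lists described here.

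For 20 genes of the unfoldase CDC-48 and of degradation from the endoplasmic reticulum the median was -0.05, with 15 below 0. At an unadjusted p under 0.05 there was 1, lower, where 2.17% of all genes were lower. In 2 of the 20 every RNAi library was below every L4440 library, where 5.32% of all genes did the same. The cofactor gene ufd-1 was at 139.7 ± 11.6 CPM under RNAi and 158 ± 1.95 CPM with L4440 without overlap (adjusted p = 0.717 in edgeR), and npl-4.2 and cup-2 followed by p. They averaged 19.5 ± 2.59 and 131 ± 6.51 CPM under RNAi and 22.4 ± 2.20 and 141 ± 7.52 CPM with L4440. Of 15 cullin ligase genes 9 were below 0 (median -0.02). At an unadjusted p under 0.05, where 2.17% of all genes were lower, there were 3 of these genes, all lower. They were the ring-finger gene rbx-1, the adaptor gene skr-2 and the elongin gene elb-1, at 153 ± 8.10, 167 ± 16.1 and 37.4 ± 3.38 CPM under RNAi and 176 ± 14.2, 192 ± 13.3 and 43.9 ± 4.52 CPM with L4440. Of 15 genes listed as deubiquitinases 9 were below 0 (median -0.05) and 0 had an unadjusted p under 0.05. The smallest p were those of csn-5, which is also listed with the COP9 signalosome, usp-14 and otub-1. These were at 84.9 ± 8.90, 267 ± 36.03 and 130.2 ± 11.5 CPM under RNAi and 94.3 ± 5.76, 302 ± 20.9 and 143 ± 8.15 CPM with L4440.

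Other multi-subunit complexes gave medians on both sides of that of the proteasome. The median was -0.11 over the 6 genes of the COP9 signalosome, a relative of the lid, with 5 below 0. It was -0.04 over the 8 chaperonin genes, with 8 below 0, and -0.20 over 77 cytosolic ribosomal protein genes, with 75 below 0. In the same 3 lists, in that order, 0, 0 and 33 genes had an unadjusted p under 0.05. The 33 were all lower, where 2.17% of all genes tested were lower at that threshold. In 0, 0 and 40 genes every RNAi library was below every L4440 library, where 5.32% of all genes did the same. Beside csn-5, the COP9 genes with the smallest p were csn-6 and csn-4, at 90.6 ± 9.76 and 94.2 ± 10.1 CPM under RNAi and 99.4 ± 3.17 and 103 ± 12.4 CPM with L4440. The chaperonin genes with the smallest p were cct-1, cct-5 and cct-7, at 556 ± 86.0, 676 ± 104 and 426 ± 74.0 CPM under RNAi and 602 ± 73.7, 717 ± 88.1 and 448 ± 61.2 CPM with L4440. Among the ribosomal protein genes they were rpl-26, rps-27 and rps-29, at 571 ± 35.0, 375 ± 25.3 and 331 ± 28.4 CPM under RNAi and 692 ± 29.1, 448 ± 13.9 and 403 ± 24.3 CPM with L4440. In RNAi replicates 1, 2 and 3 the chaperonin medians were -0.10, 0.19 and -0.27, and the COP9 medians -0.16, 0.05 and -0.14, while the ribosomal protein medians were -0.29, -0.15 and -0.17. RNAi replicate 2 was the highest of the 3 RNAi libraries in each of these lists, as it was for the proteasome. Whether any of these medians differed from that of the proteasome genes was not tested.

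**Figure D5:**
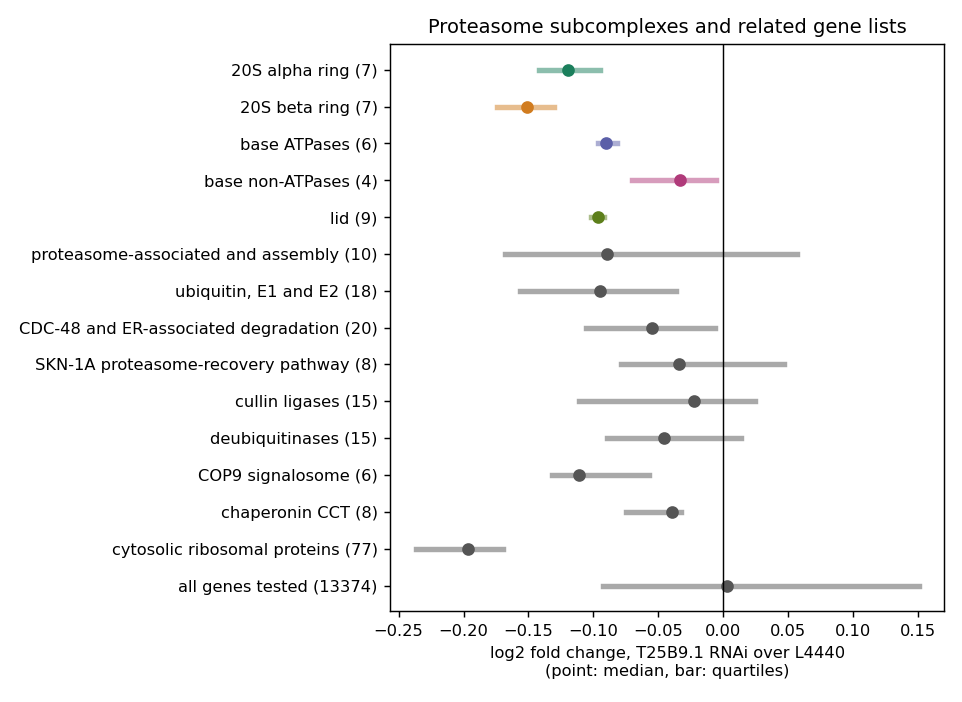
Median (point) and quartiles (bar) of the log2 fold changes, T25B9.1 RNAi over L4440 (horizontal axis), for the 5 proteasome subcomplexes, related gene lists and all genes tested (vertical axis, number of genes in brackets). The beta ring lies at -0.15 and the ribosomal protein genes at -0.20, against 0.002 for all 13374 genes.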

How the data were processed

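The TruSeq RNA Library Preparation Kit v2 was used on total RNA, per the labels' protocols. The deposited counts are whole numbers for each gene. Per the submitters' processing notes the tools were featureCounts 1.4.6-p4, STAR 2.4.1d and bcl2fastq 1.8.4, with the build WBcel235. Their options and the annotation release were not given in the sources used. A second deposited table, named RPKM, was treated as a score, because its factor to the counts repeated every 36 genes, although an RPKM-like unit had been assumed when the design was set. It served as an alternative only, in limma on log2(value + 1) or log2(value + 0.1). Genes were filtered with filterByExpr, scaled by TMM, then tested in edgeR 4.0.16 (quasi-likelihood, 2-sided, Benjamini-Hochberg over 13374 genes, threshold 0.05, R 4.3.3). The SE is the log2 fold change divided by the square root of F, and intervals are 95%. DESeq2 1.42.0 and limma 3.58.1 were alternatives. Exonic lengths and positions came from Ensembl release 115 of WBcel235. The test was checked on simulated counts.

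The members and lists were chosen with earlier results of these data known. Values in every library are given for members with an unadjusted p under 0.05 or groups without overlap, for the 2 smallest p, the highest fold change and the highest and lowest level of each subcomplex, for pbs-1, pbs-2, pbs-5, rpn-6.1, rpn-6.2, rpn-10, rpn-11 and rpn-13. In each pathway list up to 3 tested genes with the smallest p are named, with group means or library values. The genes uba-1, skn-1, png-1, wdr-23, sel-1 and sel-11 were added after their values were seen. Replicate numbers follow accession order. Libraries of neighbouring number deviated together from their group means (correlations 0.216, 0.418 and 0.285), although the labels name nothing they share. Promoter and protein sequences were not used here.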

Additional observations from a re-analysis of the deposited data

How the results depend on the processing

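The median of the 33 members stayed below 0 in every fit of the counts, from -0.11 with no filter to -0.07 with upper quartile factors, and 0 members were called in any fit. Leaving out 1 library moved it between -0.193 and -0.065, and that of the other base subunits between -0.12 and 0.02. The count of genes called depended on the model: against 0 lower and 0 higher, the counts were 1 and 0 with RLE factors, 4 and 10 with DESeq2, 3 and 9 with the likelihood ratio test, 16 and 123 with no filter and 1 and 0 in the length correction, and 0 to 0 lower and 0 to 1 higher when 1 library was left out. T25B9.1 passed with RLE factors (-1.83, adjusted p = 0.0346), DESeq2 (-1.84), the likelihood ratio test (-1.84), no filter (-1.85) and the length correction (-1.82). The replicate block of neighbouring library numbers gave a median of -0.10 and changed no call.

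The second table, whose factor differs between the libraries of a gene, called 19 lower and 64 higher genes, or 15 and 43 with the smaller pseudocount, and T25B9.1 at -1.17 or -1.64. These calls depended on the minimum mean of 0.5: with no minimum the table called 0 lower and 0 higher genes, and T25B9.1, at -1.17, had an adjusted p = 1 in limma. On log2(value + 1) with the minimum mean, 27.9% of all genes in the second table were below 0. Their median was 0.11, against 0.0046 for the members. The table put 15 of the 33 members below 0, the ATPase median at 0.054 and the lid median at 0.039. With either pseudocount it put pbs-1 at 0.10, pas-1 at 0.012, pbs-6 at 0.25, rpt-6 at 0.034, rpt-2 at 0.15 or 0.16, rpn-3 at 0.054, rpn-9 at 0.041, rpn-6.1 at 0.062 and rpn-6.2 at 0.0046 or 0.0050, above 0 and uncalled. On the counts, rpt-2 was above 0 with upper quartile factors (0.022), library totals (0.021), the stricter filter (0.011) and the length correction (0.0056), and leaving out 1 library gave -0.082 to 0.053. The gene rpn-1 was below 0 in the length correction (-0.049), and from -0.11 to 0.15 when 1 library was left out. The cause of these changes was not tested. The members stood at 24 to 682 CPM, and counting error was not separated from the spread between libraries.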
